A study of Mus musculus with 12 samples.

Results

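The comparison set 4 samples treated with PP242 against 4 treated with rapamycin, 8 of the 12 one-colour mouse arrays of the study, to ask what an inhibitor of the mTOR kinase changes beyond rapamycin. Cells were NIH3T3, an established mouse embryonic fibroblast line with no engineered allele named in the labels. They were exposed for 18 h to 50 nM rapamycin, to 2 µM PP242 or to the solvent DMSO. The design text and the sample characteristics give the PP242 dose as 2 µM, whereas the treatment protocol gives 2 mM. Membership came from the sample titles alone. Each compound was tested at 1 dose and 1 time, so the differences below are between these doses and not between matched doses. The 4 samples of a condition are called independent experiments in the design text.

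mTOR is a serine/threonine kinase that works in a pair of complexes. mTORC1, built on Raptor, phosphorylates S6 kinase and the 4E-BP proteins and drives translation, ribosome production and anabolic metabolism, and mTORC2, built on Rictor, phosphorylates Akt and SGK1. Rapamycin binds mTORC1 through FKBP12 and blocks only some of its substrates allosterically, whereas PP242 occupies the ATP pocket of the kinase and reaches both complexes. Akt keeps the FoxO transcription factors out of the nucleus, and dividing fibroblasts depend on mTOR for entry into the cell cycle.

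Values are log2 of the processed signal minus the 75th percentile of the same array, so that 0 is the 75th percentile and a difference of 1 is 2-fold. The arrays were not of equal quality. The ratio of the 75th to the 25th percentile of the signal was 340 and 420 in PP242 2 and 3 and 347, 320 and 296 in rapamycin 1, 2 and 4. It was 21.9 in PP242 1, 13.6 in PP242 4 and 7.12 in rapamycin 3, where 97.9% of spots counted as well above background against 59.8% to 60.3% on the other rapamycin arrays. The comparison was therefore also fitted without arrays under a ratio of 100, which left 2 PP242, 3 rapamycin and 3 DMSO arrays, called clean below; DMSO 2, at 51.1, was the nearest array outside and DMSO 3, at 261, the nearest inside. PP242 4 also stood apart from the other PP242 arrays in the genes that changed most: the median log2 level of mitosis genes, taken relative to ribosomal protein genes of the same array, was -5.78, -6.17 and -5.77 in PP242 1, 2 and 3 but -4.70 in PP242 4, close to the rapamycin arrays (-4.67 to -4.06) and the DMSO arrays (-4.60 to -4.27).

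**Figure D1:**
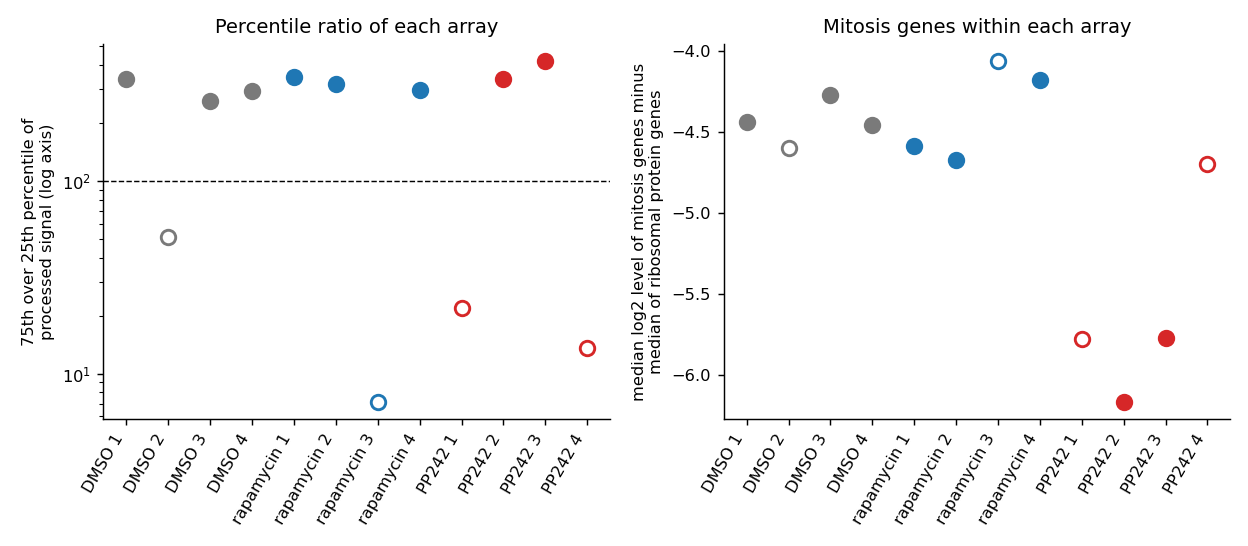
The left panel plots the ratio of the 75th to the 25th percentile of the processed signal for each of the 12 arrays on a log axis, with the dashed line at 100. The right panel plots the median log2 level of the mitosis genes minus that of the cytosolic ribosomal protein genes. Filled points are the 8 arrays above the line. PP242 1, 2 and 3 lie at -5.77 or below in the right panel and every other array lies at -4.70 or above.

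Replicate number 4 stood apart as well. Over the genes tested on the 8 arrays, rapamycin 1 and rapamycin 2 differed by a median absolute log2 of 0.0932, and PP242 2 and PP242 3 by 0.108, whereas rapamycin 4 differed from them by 0.315 and 0.322 and DMSO 4 differed from DMSO 1 and 3 by 0.297 and 0.313. No PP242 array of replicate 4 was among the 8, so counts are also given without rapamycin 4 and DMSO 4. Leaving these out removes the largest differences within groups, so a higher count there is no sign of stability. Whether replicates 1 to 3 shared a culture is not known, and both clean PP242 arrays are among them. Fibroblast markers had a summed level of 803 to 1046 times the 75th percentile on the clean PP242 arrays and 899.8 to 912 on the rapamycin arrays. Of the 15, 13 were well above background on rapamycin 4 and DMSO 4 and 15 on the other clean arrays. Single members varied with replicate number 4: Postn was at 0.75 and 0.74 in rapamycin 1 and 2 and -7.27 in rapamycin 4. Lum was at -2.59 and -2.69 in rapamycin 1 and 2 and 2.27 in rapamycin 4. Epithelial and endothelial markers summed to at most 0.31 on any of the 8 arrays. Macrophage and leukocyte markers summed to 1.57 and 1.65 in PP242 2 and 3. Their sums were 1.97 to 2.16 on the clean rapamycin arrays and 2.98 to 3.05 on the clean DMSO arrays. Of 6 tested, 1 was called lower with PP242 than with rapamycin and none higher, against 7.08% and 6.8% of all genes. The sums of the adipocyte and muscle lists varied with replicate number 4 too. Adipocyte markers, carried by Fabp4 and Lpl, summed to 10.7 in rapamycin 1 and 2 and 0.546 in rapamycin 4, against 10.9 and 11.2 in PP242 2 and 3. Muscle markers, carried by Actc1 and Acta1, summed to at least 24.0 in rapamycin 1 and 2 and to 5.80 in rapamycin 4 and to 14.1 and 12.9 in PP242 2 and 3; their part in the results below was not tested.

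On all 12 arrays no gene passed. Limma called 0 of 25581 genes (0%) between PP242 and rapamycin at an adjusted p under 0.05, the threshold for a call throughout, with 1058 genes at an unadjusted p under 0.05. The cyclin gene Ccna2, needed for S phase and mitosis, is an example. Its level was 2.82, 2.76, 2.71 and 3.52 in PP242 1 to 4 and 4.38, 4.29, 1.65 and 4.45 in rapamycin 1 to 4. The PP242 arrays thus lay below 3 of the rapamycin arrays and above rapamycin 3. Leaving out rapamycin 3 alone gave 1568 calls, 569 higher and 999 lower with PP242. The median log2 difference over 12 arrays was -0.87 for mitosis genes, -0.61 for DNA replication genes and 0.67 for FoxO factors and targets, beside 0.26 for all genes tested.

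On the 8 arrays above the ratio of 100, PP242 and rapamycin differed in many genes. Limma called 2730 of 19669 genes (13.9%), 1338 higher (6.8%) and 1392 lower (7.08%) with PP242, and 956 of them (4.86%) differed at least 2-fold, 372 higher (1.89%) and 584 lower (2.97%). PP242 against DMSO called 5083 genes (25.8%, with 12.9% higher and 12.9% lower) and rapamycin against DMSO called 5 (0.0254%) on the same arrays; these comparisons share arrays with each other and with the one described here. The groups did not overlap for 53.2% of 19362 genes with a value on every array (28.3% with PP242 higher and 24.8% lower), so a lack of overlap is common here. Of the 2730 genes, 1394 (51.1%) were also among the 1568 called on the 11 arrays without rapamycin 3 (88.9% of those), all 1394 with the same sign. The 11 arrays include the 8, so the shared sign is no independent support. Without rapamycin 4 and DMSO 4 the count was 6753, with 3652 higher and 3101 lower, and with PP242 1 and DMSO 2 added back (a ratio of at least 20) it was 3283, of which 2337 were shared. Differences below carry the standard error of this fit. The count fell to 469 without PP242 3 and to 500 without PP242 2, with 31.8% and 30.2% of the calls higher in place of 49.0%, and to 511 with slide as a block, with 32.1% higher. List counts given below for an alternative fit are to be set beside that fit's calls over all 19669 genes. These were 3652 higher and 3101 lower without replicate 4 and 164 and 347 with slide as a block. With the 10 arrays at a ratio of at least 20 they were 1525 and 1758. PP242 2 and 3 sat at position 3 of their slides, as did DMSO 3 but no rapamycin array. The median log2 level of mitosis genes was 3.01 in DMSO 3 and 2.95 in DMSO 1, at position 1. In PP242 2 and 3 it was 1.33 and 1.36. The part of array position was not tested for these or other genes.

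Mitosis genes were the most uniform group. All 37 measured members were called lower with PP242 and none higher, against 7.08% of all genes called lower, with a median log2 difference of -1.60 beside 0.02 for all genes. Aurkb, the kinase of the chromosomal passenger complex, was at -0.61 and -0.79 in PP242 2 and 3 and at 1.48, 1.42 and 1.80 in rapamycin 1, 2 and 4. The 2 PP242 arrays lay below every rapamycin array, and the difference was -2.26 ± 0.15 (SE, adjusted p = 0.0010). Ccna2 differed by -1.63 ± 0.09 (adjusted p = 0.0010), from the levels given above. Kif23, a kinesin of the central spindle, stood at 0.61 and 0.59 with PP242 and at 2.26, 2.43 and 2.60 with rapamycin, again without overlap, a difference of -1.83 ± 0.12 (adjusted p = 0.0010). Mad2l1, a spindle checkpoint protein, differed by -1.46 ± 0.10 (adjusted p = 0.0010).

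Rapamycin left these genes close to DMSO. The median over mitosis genes was -0.15 for rapamycin minus DMSO, with 0 of 37 called, and -1.78 for PP242 minus DMSO, with 37 of 37 called lower. Within slides the median difference between PP242 and rapamycin was -1.54 on slide 1 and -1.53 on slide 2. The count was 37 of 37 also without replicate 4 and with the 10 arrays, 32 with slide as a block and 30 without either PP242 array.

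Genes of DNA replication followed the mitosis genes. All 37 measured members were called lower, against 7.08% of all genes, with a median of -1.17. The median for rapamycin minus DMSO was -0.13 and no member was called in that comparison. Tk1, the thymidine salvage kinase of S phase, was at 2.51 and 2.54 in the PP242 arrays and at 4.55, 4.63 and 4.52 in the rapamycin arrays, a difference of -2.04 ± 0.08 (adjusted p = 0.0010). Its PP242 arrays lay below all DMSO arrays too, which ran from 4.82 to 4.84. Fen1, the flap endonuclease of lagging strand synthesis, differed by -1.66 ± 0.12, the replication licensing inhibitor Gmnn by -1.31 ± 0.09 and the primase subunit Prim2 by -1.17 ± 0.08 (adjusted p = 0.0011 each). With slide as a block 17 of the 37 were called, and 17 and 20 without PP242 2 and PP242 3.

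Among the 12 measured G1 cyclins and CDK inhibitors, none rose and 2 fell, against 6.8% and 7.08% of all genes. The pocket protein gene Rbl1 stood at 0.51 and 0.61 with PP242 and at 2.03, 2.02 and 2.05 with rapamycin, a difference of -1.47 ± 0.08 (adjusted p = 0.0010). Cdk2 differed by -0.85 ± 0.14 (adjusted p = 0.013), although on a dim probe that was not called with 10 arrays (adjusted p = 0.38). Cdk4, the kinase partner of D-type cyclins, was at 5.01 and 4.98 with PP242 and at 5.05, 5.13 and 4.95 with rapamycin, overlapping ranges that were not called (-0.05 ± 0.09, adjusted p = 0.78). Of the 12, 5 fell without replicate 4, 3 with the 10 arrays and 1 with slide as a block or without either PP242 array.

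Promoters of the mitosis and replication genes were searched for short sequences. The lists were chosen with earlier results of these data known, so the shares below are a description and no independent support. Windows of 300 bases, from 250 before to 50 after the transcription start, were read from RefSeq for build GRCm38.p6 and searched on both strands. The CHR letters TTTGAA, the element that repressor and activator complexes of the cell cycle bind in mitotic genes, occurred in 23 of 34 windows of mitosis genes (67.6%), against 17.9% of all 32851 windows and 12.5% of windows of the genes tested. They were in 21.8% of windows of genes called lower and 10.6% of windows of genes called higher. The E2F site letters TTTCCCGC or TTTGGCGC, which do not overlap each other, occurred in 10 of 35 windows of replication genes (28.6%), against 1.56% of all windows, and in none of the 34 mitosis windows. The called members with the lowest adjusted p whose windows hold the element are shown, with the element in capitals: Kif23 (chr9:61946750-61947049, minus strand) and Prc1, an organiser of the central spindle that differed by -1.74 ± 0.10 (chr7:80294201-80294500, plus strand), for CHR, and Rfc3, a subunit of the clamp loader that differed by -1.14 ± 0.09 (chr5:151651159-151651458, minus strand), for E2F.
Kif23: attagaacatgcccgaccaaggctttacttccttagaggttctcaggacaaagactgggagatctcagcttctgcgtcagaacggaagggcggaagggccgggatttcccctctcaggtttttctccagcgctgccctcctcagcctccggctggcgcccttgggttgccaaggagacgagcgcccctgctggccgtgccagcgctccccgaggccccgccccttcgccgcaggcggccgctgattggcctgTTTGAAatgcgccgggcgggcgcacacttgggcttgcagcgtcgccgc
Prc1: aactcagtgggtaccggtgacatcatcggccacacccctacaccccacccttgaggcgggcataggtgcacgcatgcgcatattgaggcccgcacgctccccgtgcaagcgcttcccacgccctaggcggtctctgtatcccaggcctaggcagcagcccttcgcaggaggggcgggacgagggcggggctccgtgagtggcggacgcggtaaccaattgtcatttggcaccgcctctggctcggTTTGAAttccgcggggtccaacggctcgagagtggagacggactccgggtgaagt
Rfc3: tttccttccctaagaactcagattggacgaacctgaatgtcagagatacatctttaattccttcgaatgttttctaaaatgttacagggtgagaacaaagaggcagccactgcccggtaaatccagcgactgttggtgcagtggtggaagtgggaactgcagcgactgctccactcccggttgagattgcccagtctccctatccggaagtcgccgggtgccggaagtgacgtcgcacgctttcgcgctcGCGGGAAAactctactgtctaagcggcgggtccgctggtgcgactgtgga

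In Kif23 and Prc1 the capitals lie within 10 bases of the transcription start, and in Rfc3 the E2F letters are on the opposite strand at the start. A match is a description of the letters in the window and not evidence of binding.

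Immediate early genes and genes induced by the ERK kinase pathway were lower with PP242 in part. Of 27 measured members, 9 were called lower and none higher, against 7.08% of all genes called lower. The list median was -0.82, and 0.00 for rapamycin minus DMSO. Egr1, a zinc finger factor induced within minutes by growth factors, was at -0.18 and -0.08 in the PP242 arrays and at 2.32, 2.25 and 3.33 in the rapamycin arrays. Both PP242 arrays lay below all rapamycin arrays and below all DMSO arrays (2.46 to 2.80), a difference of -2.77 ± 0.33 (adjusted p = 0.0044). Its relative Egr2 differed by -2.48 ± 0.28 (adjusted p = 0.0037), the EGF receptor ligand Ereg by -2.31 ± 0.25 (adjusted p = 0.0034) and Phlda1 by -0.64 ± 0.08 (adjusted p = 0.0060). Junb (-0.59 ± 0.32, adjusted p = 0.28) and Hmga1 (-0.06 ± 0.19, adjusted p = 0.89) were not called. Ereg is dim: in PP242 1, a noisier array, it was at -2.85 against -5.94 and -5.75 in PP242 2 and 3, and with 10 arrays it was not called (adjusted p = 0.27). The list had 18 calls lower and 1 higher without replicate 4, 3 lower with slide as a block, and 2 and 3 lower without PP242 2 and PP242 3.

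Targets of ATF4, the transcription factor that raises amino acid synthesis and import and is itself translated under mTORC1 control, had a median below DMSO with rapamycin and further below it with PP242. The list median was -0.61 for rapamycin minus DMSO, with 0 of 36 called, and -1.10 for PP242 minus DMSO, with 21 lower and 1 higher called. For PP242 minus rapamycin it was -0.60, with 10 lower and 1 higher, against 7.08% and 6.8% of all genes. Mthfd2, the mitochondrial folate enzyme, stood at -1.19 and -1.43 with PP242, at 0.87, 0.92 and 1.24 with rapamycin and at 1.36, 1.51 and 2.19 with DMSO. The 3 groups were thus in order with no overlap, although rapamycin against DMSO was not called (-0.68, adjusted p = 0.32), and PP242 differed from rapamycin by -2.32 ± 0.27 (adjusted p = 0.0040). Cth, the enzyme that makes cysteine from cystathionine, was at -4.55 and -4.37 with PP242 and at -2.01, -1.93 and -1.57 with rapamycin, a difference of -2.62 ± 0.40 (adjusted p = 0.0098). Psat1 of serine synthesis differed by -1.20 ± 0.15 (adjusted p = 0.0054) and Mthfd1l by -1.26 ± 0.20 (adjusted p = 0.010). Phgdh, the first enzyme of serine synthesis (-0.55 ± 0.15, adjusted p = 0.065), and Eif4ebp1 (0.16 ± 0.23, adjusted p = 0.71) were not called. The list had 0 calls with slide as a block, 1 and 0 without PP242 2 and PP242 3, and 23 lower and 3 higher without replicate 4.

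The overlapping list of serine and one-carbon folate enzymes had 9 of 19 members called lower and 1 higher, with a median of -0.59; 2 were called lower without either PP242 array and 1 with slide as a block. On the 8 arrays 7.08% of all genes were called lower and 6.8% higher. Tyms, which makes thymidylate for DNA synthesis, differed by -1.41 ± 0.11 (adjusted p = 0.0012) and Shmt1 by -1.06 ± 0.14 (adjusted p = 0.0059). The CARE letters TGATGNAA, the composite element through which ATF4 acts with C/EBP partners, occurred in 10 of 37 windows of ATF4 targets (27.0%) and in 3.97% of all windows. They were in 0 of 17 windows of the serine and one-carbon list. Genes called lower had them in 2.32% of windows, near the 2.41% of the genes tested. Trib3, a pseudokinase that feeds back on this response, is shown as the called member with the lowest adjusted p whose window holds the element (chr2:152344011-152344310, minus strand, capitals on the opposite strand). Its mean level was -0.54 with PP242 and 0.80 with rapamycin, a difference of -1.33 ± 0.31 (adjusted p = 0.039) that stayed called in 2 of 8 fits leaving out 1 array.
Trib3: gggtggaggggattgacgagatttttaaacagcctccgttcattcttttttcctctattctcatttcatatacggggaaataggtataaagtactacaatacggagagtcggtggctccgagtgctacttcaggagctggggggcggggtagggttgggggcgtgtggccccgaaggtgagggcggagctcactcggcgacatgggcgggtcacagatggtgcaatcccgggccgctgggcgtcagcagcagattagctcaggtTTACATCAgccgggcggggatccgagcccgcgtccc

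Other genes of protein synthesis had fewer calls, to be set beside the 7.08% of all genes called lower and the 6.8% called higher. Cytosolic aminoacyl-tRNA synthetases had 3 of 20 called lower and none higher with a median of -0.29, led by Mars1 (-0.71 ± 0.10, adjusted p = 0.0088). Amino acid transporters had 3 of 22 called lower, among them Slc7a5, the leucine importer, at -1.54 and -1.58 with PP242 and at -0.11, -0.18 and 0.03 with rapamycin. Its difference of -1.47 ± 0.29 was called (adjusted p = 0.022), with no overlap between the groups. Genes of ribosome biogenesis had 6 of 32 called lower and 1 higher with a median of -0.27, among them the nucleolar chaperone Nolc1 (-1.33 ± 0.19, adjusted p = 0.0075) and Nhp2 of the H/ACA particles (-0.85 ± 0.12, adjusted p = 0.0068). None of the 32 cytosolic ribosomal protein genes was called, with a median of 0.05; within slides it was 0.28 on slide 1 and -0.29 on slide 2. Of the 31 proteasome genes 3 fell and none rose, near the 7.08% of all genes called lower, with a median of -0.23; 13 fell with the 10 arrays, and 13 fell and 1 rose without replicate 4. Without replicate 4 the calls were 11 lower and 1 higher for the synthetases, 8 and 2 for the transporters and 10 and 2 for ribosome biogenesis. With slide as a block no gene of these lists was called, and without PP242 2 or PP242 3 at most 1 was in each.

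Genes of the endoplasmic reticulum chaperone set, which fold secreted proteins, had 7 of 20 called lower and none higher, against 7.08% of all genes called lower. Their median was -0.30 beside 0.01 for rapamycin minus DMSO. Manf, a secreted factor of this stress response, was at 2.95 and 3.00 with PP242 and at 3.68, 3.77 and 3.76 with rapamycin, a difference of -0.76 ± 0.08 (adjusted p = 0.0033). The PP242 arrays lay below all rapamycin and DMSO arrays. Sdf2l1 differed by -1.09 ± 0.14 (adjusted p = 0.0052) and the disulfide isomerase Pdia6 by -0.77 ± 0.12 (adjusted p = 0.012). Hspa5, or BiP (-0.25 ± 0.13, adjusted p = 0.27), and Canx, whose probes disagreed in sign (0.23 ± 0.16, adjusted p = 0.40), were not called. The list had 1 call without either PP242 array and with slide as a block, and 13 lower and 1 higher without replicate 4.

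Glycolysis genes, like the ATF4 targets, had a median below DMSO with both inhibitors. It was -0.44 for rapamycin minus DMSO and -0.78 for PP242 minus DMSO, and 4 of 19 members were called lower between the inhibitors, none higher, against 7.08% of all genes called lower. Slc2a1, the glucose transporter GLUT1, stood at 2.64 and 2.76 with PP242, at 3.87, 3.82 and 4.26 with rapamycin and at 4.64, 4.60 and 5.15 with DMSO. The 3 groups did not overlap, although rapamycin against DMSO was not called. PP242 differed from rapamycin by -1.28 ± 0.21 (adjusted p = 0.013). Lactate dehydrogenase Ldha differed by -0.94 ± 0.12 (adjusted p = 0.0060), whereas Gapdh (0.06 ± 0.15, adjusted p = 0.86) and Aldoa (0.26 ± 0.17, adjusted p = 0.36) were not called. Ak4, a mitochondrial adenylate kinase counted among the hypoxia-inducible genes, was at -3.40 and -3.29 with PP242, at -2.23, -2.19 and -2.27 with rapamycin and at -1.07, -1.12 and -1.08 with DMSO. It was called at each step, with -1.11 ± 0.09 between PP242 and rapamycin (adjusted p = 0.0012) and -1.14 between rapamycin and DMSO (adjusted p = 0.021). The transferrin receptor gene Tfrc, which imports iron, differed by -2.10 ± 0.51 (adjusted p = 0.042), a call kept in 2 of 8 fits leaving out 1 array. Without either PP242 array none of the 19 glycolysis genes was called, with slide as a block 1 was lower, and without replicate 4 the calls were 7 lower and 3 higher.

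**Figure D2:**
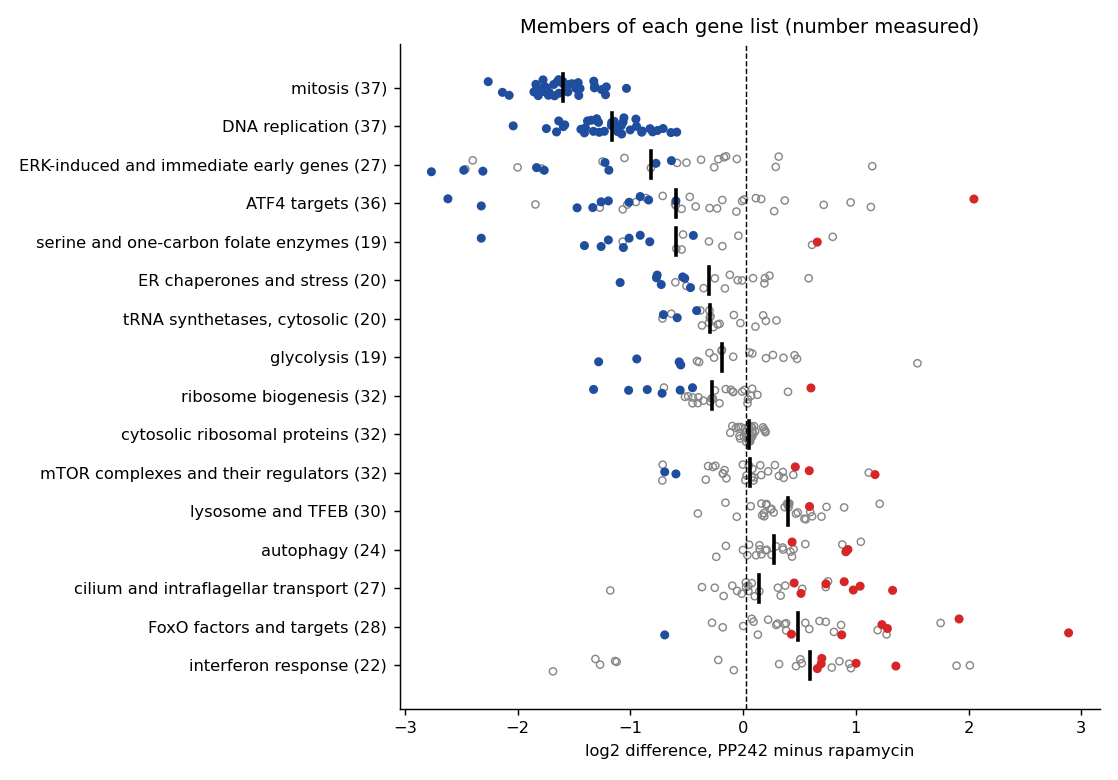
Each point is 1 measured member of a gene list, placed at its log2 difference between PP242 and rapamycin on the 8 arrays, with called members filled (blue lower, red higher), the list median as a black bar and the median of all genes as a dashed line at 0.02. The 37 mitosis and 37 replication genes lie wholly to the left with every point filled, while the FoxO, interferon and cilium lists have their filled points mainly to the right. Trim63, the rightmost point, was below background with rapamycin.

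FoxO factors and their targets were the list with the most calls in the other direction after the cilium list. Of 28 measured members 6 were called higher and 1 lower, against 6.8% and 7.08% of all genes, with a median of 0.49 beside 0.07 for rapamycin minus DMSO. Txnip, the thioredoxin-interacting arrestin that limits glucose uptake, was at 4.17 and 4.04 with PP242 and at 2.27, 2.15 and 2.15 with rapamycin. Its DMSO arrays were lower still, at 1.41, 1.48 and 0.75, although rapamycin against DMSO was not called. PP242 exceeded rapamycin by 1.92 ± 0.22 (adjusted p = 0.0041). Bbc3, the BH3-only protein PUMA, stood at 2.48 and 2.38 with PP242 and at 1.27, 1.28 and 1.03 with rapamycin, a difference of 1.23 ± 0.12 (adjusted p = 0.0022). Trim63, the muscle ubiquitin ligase MuRF1, missed the background criterion on all rapamycin arrays and was at -5.62 and -5.38 with PP242, at least 2.02-fold higher (mean -5.50 against -8.39). It passed the filter on dim probes only through the PP242 arrays, so its place among the 6 calls (adjusted p = 0.0014) is a description and no support for the list. Sgk1, an mTORC2 substrate kinase counted in this list, fell by 0.70 ± 0.12 (adjusted p = 0.013), and Foxo1 itself rose by 0.43 ± 0.09 (adjusted p = 0.028). The counts were 17 higher and 1 lower without replicate 4, 9 and 1 with the 10 arrays, 4 and 0 with slide as a block, and 2 and 3 higher without PP242 2 and PP242 3.

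The FoxO letters GTAAACA occurred in 6 of 37 windows of this list (16.2%) and in 3.65% of all windows. They were in 3.33% of windows of genes called higher and 2.64% of windows of the genes tested. The list of p53 targets had them in 4 of 24 windows (16.7%). The window of Trim63 (chr4:134314870-134315169, plus strand) is shown by the same rule, with the element in capitals on the opposite strand.
Trim63: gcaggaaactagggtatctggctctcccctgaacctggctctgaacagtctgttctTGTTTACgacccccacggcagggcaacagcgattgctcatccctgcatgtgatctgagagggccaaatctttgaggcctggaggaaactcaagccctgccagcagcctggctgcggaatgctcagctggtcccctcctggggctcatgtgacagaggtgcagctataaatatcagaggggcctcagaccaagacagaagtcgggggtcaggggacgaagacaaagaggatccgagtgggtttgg

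Genes of autophagy and of the lysosome, which FoxO and TFEB factors serve, changed in few members. Of 24 autophagy genes 3 were called higher, against 6.8% of all genes, and none lower, with a median of 0.27, namely Atg10 (0.91 ± 0.19, adjusted p = 0.027), Ulk2 (0.43 ± 0.09, adjusted p = 0.029) and Atg14 (0.93 ± 0.22, adjusted p = 0.039). With slide as a block, or without either PP242 array, none of the 24 was called, and without replicate 4 the calls were 8 higher and 1 lower. The autophagy receptor Sqstm1 illustrates the spread of replicate 4: it was at 6.91 and 6.87 with PP242 and at 6.22, 6.23 and 5.09 with rapamycin, and was not called (1.04 ± 0.44, adjusted p = 0.17). Of 30 lysosomal genes only Tfeb was called (0.59 ± 0.13, adjusted p = 0.034), on a dim probe that was not called with the 10 arrays (adjusted p = 0.22); the median was 0.39 and was 0.06 without replicate 4, where 7 were called higher and 1 lower.

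Interferon response genes were higher with PP242 in part, with 5 of 22 called higher, none lower and a median of 0.59. Of all genes 6.8% were called higher and 7.08% lower. Stat2, part of the interferon-activated complex, was at 0.13 and 0.04 with PP242 and at -0.55, -0.63 and -0.66 with rapamycin, a difference of 0.70 ± 0.11 (adjusted p = 0.0097). Xaf1 differed by 1.36 ± 0.23 (adjusted p = 0.014), the peptide transporter Tap1 by 1.00 ± 0.17 (adjusted p = 0.014) and Ifi35 by 0.66 ± 0.11 (adjusted p = 0.013). With slide as a block, or without either PP242 array, none of the 22 was called, and without replicate 4 the calls were 12 higher and 3 lower.

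Cilium and intraflagellar transport genes, which build the primary cilium of resting fibroblasts, had 7 of 27 called higher and none lower. Their median was 0.14, and 6.8% of all genes were called higher. Bbs4, of the BBSome coat, stood at 0.67 and 0.76 with PP242 and at -0.58, -0.45 and -0.80 with rapamycin, a difference of 1.33 ± 0.16 (adjusted p = 0.0041). The transport proteins Ift81 (1.04 ± 0.13, adjusted p = 0.0055), Ift88 (0.98 ± 0.14, adjusted p = 0.0070) and Ift52 (0.51 ± 0.10, adjusted p = 0.021) were called as well. Ift46 was not (0.33 ± 0.12, adjusted p = 0.12). Of the 27, 1 was called with slide as a block or without either PP242 array, and 12 higher and 2 lower without replicate 4.

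Of 32 measured members of the mTOR complexes and their regulators 3 were called higher and 2 lower, near the 6.8% and 7.08% of all genes, with a median of 0.06. None of the 32 was called with slide as a block, where 164 of 19669 genes were called higher and 347 lower. Without replicate 4, 6 were higher and 6 lower, beside 3652 and 3101 of the 19669 genes. Tsc2, the brake on mTORC1, was at 4.43 and 4.37 with PP242 and at 3.89, 3.89 and 3.66 with rapamycin, a difference of 0.59 ± 0.12 (adjusted p = 0.024). The kinase of Akt and SGK1, Pdpk1, was higher by 0.46 ± 0.08 (adjusted p = 0.018) and the arginine sensor Castor1 by 1.17 ± 0.22 (adjusted p = 0.020). Mtor (0.32), Rptor (-0.18), Rictor (0.08), Mlst8 (0.03), Mapkap1 (-0.33), Deptor (0.36), Akt1 (-0.31), Rps6kb1 (-0.27) and Eif4ebp2 (-0.20) were not called on the log2 scale of this fit. Probes of Rictor and of Mapkap1 disagreed in sign. Srebf1 (0.14), Hif1a (-0.09) and Foxo3 (1.27, on a dim probe) were not called either.

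**Figure D3:**
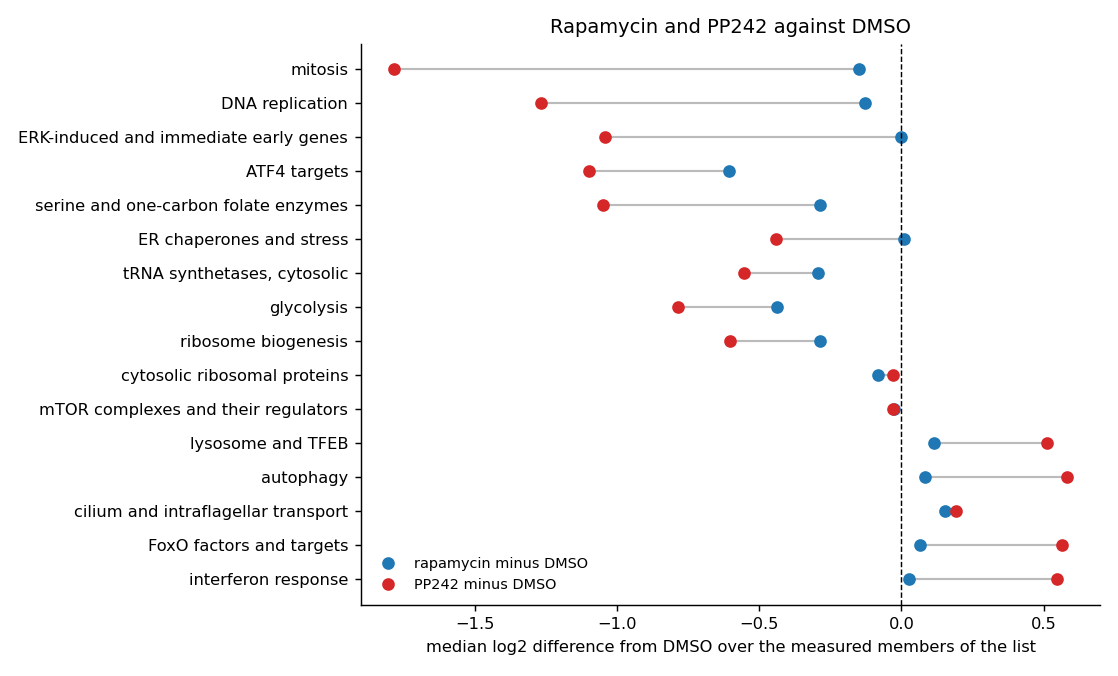
Each row is a gene list, with the median log2 difference from DMSO over its measured members on the 8 arrays for rapamycin (blue) and PP242 (red). Both comparisons use the same DMSO arrays. Rapamycin lies between -0.15 and 0.07 for the mitosis, replication, FoxO and interferon lists, where PP242 lies at -1.78, -1.27, 0.57 and 0.55, and the ATF4 and glycolysis lists lie below 0 for both.

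Beyond the lists, the largest single changes were these. Atf3, a stress-induced transcription factor, led the rises: it was at -1.25 and -1.24 with PP242, at -4.26, -4.15 and -4.89 with rapamycin and at -3.48, -3.46 and -3.83 with DMSO. Rapamycin lay below DMSO and PP242 above both without overlap, although rapamycin against DMSO was not called. The difference between PP242 and rapamycin was 3.19 ± 0.24 (adjusted p = 0.0012), 9.14-fold. S100g, a calcium-binding protein, was at -1.61 and -1.46 with PP242 and at -3.50, -3.73 and -4.22 with rapamycin (2.28 ± 0.22, adjusted p = 0.0023). Acacb, the mitochondrial acetyl-CoA carboxylase, differed by 2.23 ± 0.18 (adjusted p = 0.0014) on its brightest probe, while its probes disagreed in sign. The other rises were Cnbd2 (2.67), Paqr7 (2.66), Hcn3 (2.33), Stmn4 (2.30), Dyrk4 (2.26), Pyroxd2 (2.23) and Spag6 (2.19). Paqr7 and Hcn3 stayed called in 2 of 8 fits leaving out 1 array.

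Falls were led by Tnnt2, cardiac troponin T, with -2.82 ± 0.69 (adjusted p = 0.043), a call kept in 1 of 8 fits leaving out 1 array. Its levels were -2.69 and -2.78 with PP242 and -0.28, -0.42 and 0.97 with rapamycin, and it was highest in rapamycin 4. Mgp, the matrix Gla protein that restrains calcification, was at 1.12 and 1.22 with PP242 and at 3.42, 3.46 and 4.72 with rapamycin (-2.70 ± 0.57, adjusted p = 0.028), and it too was highest in rapamycin 4. Id1, an inhibitor of differentiation factors, stood at -0.51 and -0.42 with PP242 and at 1.67, 1.54 and 2.23 with rapamycin (-2.28 ± 0.25, adjusted p = 0.0037). Ctsw (-2.68) and Slfn9 (-2.33) were the other falls beside Egr1, Cth, Egr2, Mthfd2 and Ereg. Without replicate 4 all 10 rises and all 10 falls were called, and with the 10 arrays all 10 rises and 8 falls, Ctsw and Ereg being the exceptions. The fit without replicate 4 lacks the largest differences within groups, so its calls are no sign of stability.

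**Figure D4:**
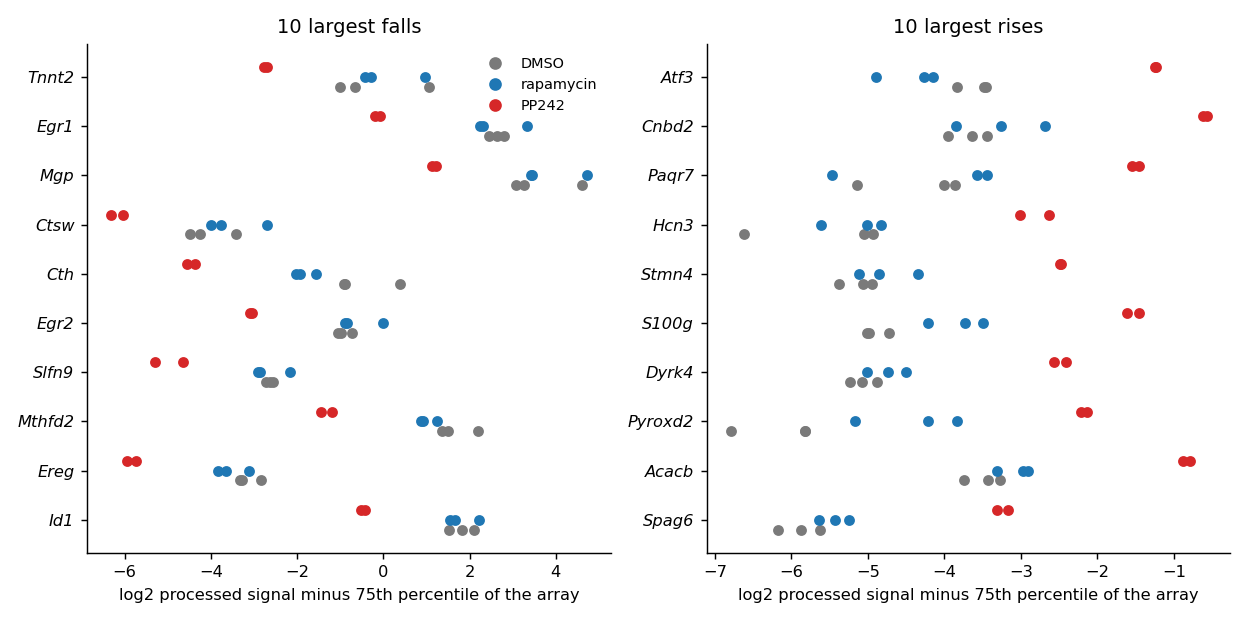
Each point is 1 of the 8 arrays, for the 10 genes that fell most and the 10 that rose most with PP242 against rapamycin, on the log2 scale relative to the array's 75th percentile. The PP242 points are separated from the rapamycin points in each of the 20 genes, by construction of the choice. For Tnnt2 and Mgp the highest rapamycin and DMSO points are the arrays of replicate 4.

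Among secreted factors, the chemokine Cxcl5 was at -1.44 and -1.31 with PP242 and at 0.63, 0.62 and 1.13 with rapamycin (-2.17 ± 0.20, adjusted p = 0.0022). In the chemokine and NF-kB feedback list Ptgs2, the inducible cyclooxygenase, differed by -0.68 ± 0.09 (adjusted p = 0.0056) and the inhibitor Nfkbia by 0.50 ± 0.10 (adjusted p = 0.026). The list held 4 members called lower and 1 higher of 16, against 7.08% and 6.8% of all genes. It had 1 call lower with slide as a block, 2 and 1 lower without PP242 2 and PP242 3, and 7 lower and 5 higher without replicate 4. Matrix proteases and their inhibitors had 2 called higher and 2 lower of 17, beside 6.8% and 7.08% of all genes: the protease Adamts1 rose by 1.48 ± 0.16 (adjusted p = 0.0035) and Timp3 by 0.69 ± 0.09 (adjusted p = 0.0067), and Plaur, the urokinase receptor, and Timp1 fell by 0.77 and 0.48 on the log2 scale (adjusted p = 0.014 and 0.037). Of these 17, 1 was called higher and none lower with slide as a block or without either PP242 array, and 8 higher and 4 lower without replicate 4.

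Where every array of one group missed the background criterion, a gene has only a bound. Such genes passed the filter on dim probes only through the groups that were not dim, so their adjusted p-values are given as a description. With PP242, 1700017N19Rik was at least 6.79-fold lower (adjusted p = 0.028; mean -9.01 against -4.06), Tprg at least 4.87-fold (adjusted p = 0.38) and Sh2d1b1 at least 4.85-fold (adjusted p = 0.092). In the other direction Zfr2 was at least 3.65-fold higher (adjusted p = 0.029), Ppp1r42 at least 3.59-fold (adjusted p = 0.093) and Lrrn2 at least 3.36-fold (adjusted p = 0.029). The bright group's mean was set against the dim group's mean of, per array, the higher of the lowest signal counted as well above background and the probe's own value.

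On the arrays left out, genes called lower and the larger rises had medians of the opposite sign to the 8 arrays. Whether the changes recur there cannot be decided from 3 arrays with low percentile ratios. The ratio was 21.9 in PP242 1, 13.6 in PP242 4 and 7.12 in rapamycin 3. Levels had a narrower range in rapamycin 3. Its ribosomal protein genes had a median of 4.91, against 7.17 to 7.42 on the other rapamycin arrays. The dim gene Spag6 was at 0.067, against -5.64 to -5.24. The part of this narrower range in the opposite signs was not tested. PP242 1 and 4 were set against rapamycin 3, the 3 arrays of these groups under the ratio of 100, with a median log2 difference of 0.50 over all genes. Genes called higher on the 8 arrays had a median of 0.84 there, with 65.9% above 0 against 57.5% of all genes. Those called and at least 2-fold higher had a median of -0.33, with 44.0% above 0, a smaller share than of all genes. Genes called lower had a median of 0.89, with 26.3% below 0 against 42.5% of all genes, and those at least 2-fold lower a median of 0.54, with 34.9% below 0. Aurkb is an example, at -0.25 and 0.42 in PP242 1 and 4 and at -0.81 in rapamycin 3. Relative to ribosomal protein genes of the same array, mitosis genes were lower with PP242 here too. Their median was -5.78 and -4.70 in PP242 1 and 4 and -4.06 in rapamycin 3. The part of the narrower range of rapamycin 3 in this difference was not tested either. In PP242 1 alone the levels of the cell cycle genes lay with those of the clean PP242 arrays: Tk1 was at 2.67, Kif23 at 0.93 and Mad2l1 at 1.14.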

How the data were processed

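The arrays were 12 Agilent one-colour whole-mouse designs, 4 each for DMSO, rapamycin and PP242. Each deposited scanner file lists 45018 spots with linear intensity values, and the processed signal is an intensity that had been background-subtracted by Agilent Feature Extraction, per the file headers; these name version 10.5.1.1 and the submitters' processing notes name 10.1. The deposited table of the whole series holds log2 values with column medians of 8.54 to 8.56 that ranked probes as the median spot signal did (Spearman at least 0.9999), so its scale is log2 of an intensity made alike between arrays; it served as an alternative, and what software made it was not stated in the sources used.

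From the processed signal, log2 values were scaled by subtracting the 75th percentile of the non-control probes of the same array. Control spots and outlier flags (1.52% of values) were left out; no spot was saturated. Probes well above background on at least as many arrays as the smallest group had (4 of 12, 2 of 8) were kept, each gene by its brightest probe. Of 26382 probes with a RefSeq accession 24844 were matched to 1 symbol, 0 to several, and 16330 were known by accession only. Limma 3.58.1 in R 4.3.3 (lmFit, eBayes) was fitted to all 3 groups, two-sided, with Benjamini-Hochberg adjustment over all genes tested. The method was also run on simulated arrays with independent noise of the spread of the 8 arrays. These had no array of low ratio and no slide or replicate effect, so the simulation does not bear on those features. Adjusted p-values are from limma throughout and rest on a spread between arrays pooled over the groups. On the 8 arrays PP242 gave 2 of them and none of replicate number 4. The spread between PP242 experiments is thus poorly known, and the number of arrays limits the precision. Data were handled with data.table (version 1.17.8), Python 3.11.15, pandas 2.3.3 and matplotlib 3.10.9.

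The members and the gene lists were chosen with earlier results of these data known. Named genes were the 10 largest rises and falls among genes with a symbol that were called, well above background on every PP242 and rapamycin array and without overlap between the groups; in each list up to 4 called members by adjusted p and up to 2 others by level; the 3 largest bounds per direction; and 16 genes of the mTOR pathway. A list member that the rule names is counted with its list but not reported here. Promoters shown belong to the called members with the lowest adjusted p whose window holds the element. Prc1, Rfc3 and Trib3 were named through these windows, after their values were seen. Deviations of same-numbered samples from their group means correlated at -0.25 to 0.62 over 4 pairs of the 8 arrays, with a median of 0.29. The 17 other pairs ran from -0.47 to 0.39, with a median of -0.03. DMSO and rapamycin of number 1 (0.45) and of number 4 (0.62) lay above all of these. The main fit used no pairing. Alternatives were other scalings, signals, filters, blocks, weights and leaving out each array. The fits with a ratio of at least 20 and without replicate 4, the values of the arrays left out, and levels relative to ribosomal protein genes were added after seeing the data.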

Additional observations from a re-analysis of the deposited data

Results flagged for a closer look

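Of 44 sets of 4 arrays examined (the 20 named rises and falls in each group without a missing value, and measures of array quality), 14 had 1 array far from the others; chance gives about 1 set in 20. The genes were chosen for separation on arrays that leave out rapamycin 3 and PP242 4, and the percentile ratio set the arrays left out, so arrays outside that choice were favoured as the far ones and the count is no test. Rapamycin 3 had 97.9% of spots well above background against at most 60.3% on the other rapamycin arrays, a median signal of 2936 against 47.7 to 82.0 and a percentile ratio of 7.12 against 296 to 347. It was also far from the other rapamycin arrays in Stmn4 (1.52 against -5.12 to -4.35), Dyrk4 (-1.01 against -5.02 to -4.50), Acacb (-0.82 against -3.31 to -2.90), Spag6 (0.067 against -5.64 to -5.24) and Mthfd2 (-1.28 against 0.87 to 1.24). PP242 4 was far from the other PP242 arrays in Atf3 (-2.97 against -1.43 to -1.24), Paqr7 (-4.17 against -1.71 to -1.46), Egr1 (1.37 against at most -0.0013) and Id1 (0.70 against -0.51 to -0.42). Rapamycin 4 was far from the others in Paqr7 (-5.46 against -3.57 to -3.44) and Tnnt2 (0.97 against -0.51 to -0.28). These arrays were the ones the report sets apart, and the cause was not tested.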

How the results depend on the processing

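Between PP242 and rapamycin on 12 arrays, 0 genes were called in the main setting and in 21 alternatives; 1 was called with the deposited table, 7563 with array quality weights (which gave rapamycin 3 a weight of 0.0180) and 1568 without rapamycin 3, so that leaving out 1 array gave 0 to 1568. On the 8 arrays the 2730 calls became 1350 with median centring, 1585 with normexp, 1626 without a filter, 511 with slide as a block and 7138 with array weights. Leaving out 1 array gave 469 to 3461 (without PP242 3 and DMSO 4), with 1411 and 1450 without rapamycin 1 and 2, and leaving out replicate 4 gave 6753. A replicate block gave 979 calls, 728 of them shared. With 1 PP242 array left, that array is assumed to vary like the other groups. No call of the 2730 was called with the opposite sign under any alternative. All of these fits share arrays with the main fit, so this is no independent check. The median of the NRF2 targets turned to 0.014 with median centring, Per3 to -0.43 with the deposited table and Fabp4 to -0.36 without replicate 4 (-0.36 to 2.43 leaving out 1 array). On 12 arrays the sign turned with array weights for Mat2a (-0.44), Cdkn2c (-0.34), Psmd3 (-0.28), Hsp90b1 (-0.50), Hspa5 (-0.25), Akt1 (-0.28) and Rps6kb1 (-0.26), and without rapamycin 3 for Mat2a (-0.51, with 0.26 the highest leaving out 1 array) and Hsp90b1 (-0.54, highest 0.59); the cause was not tested. The calls of the dim genes Ctsw, Ereg, Cdk2 and Tfeb were lost with the 10 arrays. All 10 named rises stayed called there, among them Spag6, Stmn4 and Dyrk4, which were dim with rapamycin. Why calls were lost was not tested.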
